A study of Rattus norvegicus with 6 samples.

Results

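Tenascins, thrombospondins, periostin (Postn) and the periostin relative Tgfbi were described in bulk RNA of rat intervertebral discs. The 10 genes are 10 of the 30562 in the count table and were taken by name. The other tenascins, the thrombospondins, Postn and Tgfbi were added by gene family, with earlier results of these data known. The group was chosen by the values of Tnn, which was much lower in discs given the siRNA vesicle AF-PTK@LEV@SPP1 by their labels (vesicle-labelled libraries below). Tnn is therefore given below as a description without a test, and the number of members that differed is not read as a result.

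Matricellular proteins are secreted into the extracellular matrix, where they bind collagens, fibronectin, proteoglycans, growth factors and cell surface receptors and change how cells attach and signal, rather than bearing load themselves. Tenascins assemble into multi-armed molecules of fibronectin type III domains, thrombospondins into trimers or pentamers that bind calcium, and Postn and Tgfbi share fasciclin domains that bind integrins and collagen. Several of them are sparse in resting connective tissue and abundant in development, healing wounds and loaded or injured tendon and cartilage, and Comp is a regular component of cartilage, tendon and the annulus fibrosus.

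The discs came from the tails of 12-week-old male Sprague-Dawley rats, wild type by the labels, in which a needle puncture starts degeneration. The Control group received 10 μL PBS into the disc and the other group 10 μL of AF-PTK@LEV@SPP1, a vesicle of liposomes fused with bacterial vesicles that bears a peptide for the annulus fibrosus (AF) through a bond that reactive oxygen species break and carries 1 mg/kg of siRNA against Spp1, first given 24 h after surgery, with treatment over 8 weeks. Each group had 3 libraries, from animals that the methods call independent, and the p-values rest on that statement. The sample records instead name an untreated control, a treatment of 14 days and macrophages sorted from digested discs of mice.

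The authors deposited counts of reads per gene. The 3 Control libraries held 17942989, 16565291 and 17489851 counts, and the 3 vesicle-labelled libraries held 17074981, 15560728 and 17855184. Levels are given as normalized CPM, counts put on a shared library size by TMM, the trimmed-mean scaling of edgeR. The smallest level taken as measured was 3 counts, or 0.167 to 0.193 CPM before that scaling, which covers counting error only. Control replicates 2 and 3 differed little beyond counting noise: their counts varied 1.33 times as much as noise alone over 14393 genes, and 16 genes (0.111%) differed, against 39.5% to 56.6% of genes in the other pairs within a group. This pair was therefore summed and counted as 1 sample, which left n = 2 distinct Control samples and n = 3 vesicle-labelled samples. In this design a two-sided exact permutation test cannot go below p = 0.1.

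Control replicates 1, 2 and 3 had 8122, 4411 and 4417 normalized CPM of Spp1, against which the siRNA is directed. In the vesicle-labelled libraries it had 8054, 6903 and 8461. Spp1 was thus no lower under the vesicle label, and directions below are directions between labels. The libraries look like whole disc tissue rather than sorted macrophages: the 8 macrophage markers summed to 367 to 1054 normalized CPM and the 7 chondrocyte markers to 20493 to 40212, with Col2a1 leading the latter list and Col1a1 leading the list for annulus fibrosus and tendon.

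Of the tenascins, Tnn and Tnc stood high in the Control libraries and lower in the vesicle-labelled libraries, while Tnr was hardly counted. Tnn, tenascin-W, is a tenascin of developing bone, periosteum and tumor stroma (ENSRNOG00000002548, chr13:72319155-72408156 in the coordinates of the table, whose rat build was not given in the sources used here, minus strand). It had 698, 3353 and 3343 normalized CPM in Control replicates 1, 2 and 3, from 13599, 52116 and 54758 counts. In the vesicle-labelled libraries it had 9.29, 5.61 and 4.62 normalized CPM, from 158, 93 and 81 counts. Every Control library was far above every vesicle-labelled library, and Control replicate 1 was well below the other Control libraries. The means were 2023 ± 1874 normalized CPM (SD, n = 2) and 6.51 ± 2.46 (SD, n = 3), a 311-fold difference, and even the lowest Control library was 75.2-fold above the highest vesicle-labelled one. The fitted log2 fold change, AF-PTK@LEV@SPP1 over Control, was −8.29 (SE 0.86), rank 3 from the most negative of 15537 genes. It was −6.75 when Control replicates 2 and 3 were left out. In bulk tissue, fewer cells of a type and less RNA per cell cannot be told apart.

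Tnc, tenascin-C, is induced at wounds and by mechanical strain and inflammation, and it can signal through Tlr4 and integrins (ENSRNOG00000058645, chr5:77375851-77460624, minus strand). Its Control libraries had 931, 4262 and 4271 normalized CPM. The vesicle-labelled libraries had 617, 433 and 578. The groups did not overlap, but Control replicate 1 lay only 1.72-fold above the mean of the vesicle-labelled libraries, while the Control pair lay 7.86-fold above it. The log2 fold change of Tnc was −2.27 (SE 0.63, 95% interval −3.87 to −0.67), and it was not called at the threshold used throughout, an adjusted p under 0.05 (edgeR quasi-likelihood adjusted p = 0.112; exact permutation p = 0.1). Tnc passed with the 6 libraries kept separate (edgeR adjusted p = 0.0330), with DESeq2 (adjusted p = 0.00250) and without Control replicate 1 (log2 fold change −2.99, edgeR adjusted p = 0.0377), within a range of 0.00250 to 0.297 over its 16 alternatives. Without the Control pair its log2 fold change was −0.79. Leaving out Control replicate 1 or the pair leaves 1 distinct Control sample, and the lone sample is then assumed to vary like the vesicle-labelled ones. Keeping the 6 libraries separate counts the near-identical Control pair as independent samples. That setting therefore overstates n, here and wherever it is given below.

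Tnn and Tnc kept a similar ratio of counts across the Control libraries, 0.750, 0.787 and 0.783, although the level of each differed over 4-fold among them. The last 2 of these values come from the pair counted as 1 sample. In the vesicle-labelled libraries the Tnn to Tnc ratio was 0.0151, 0.0130 and 0.00799. These ratios rest on the Tnn values that chose the group and are a description only. Tnr, tenascin-R, is a tenascin of the central nervous system that lies beside Tnn, with 151513 bases and 1 gene of the table between them (ENSRNOG00000002468, chr13:72091585-72167641, plus strand). It had 0, 0 and 1 counts in the Control libraries and 3, 9 and 1 in the others. Tnr was at or under 3 counts in 5 of 6 libraries, did not pass the filter on low counts and has no fold or test; a difference was not detectable at this depth.

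**Figure D1:**
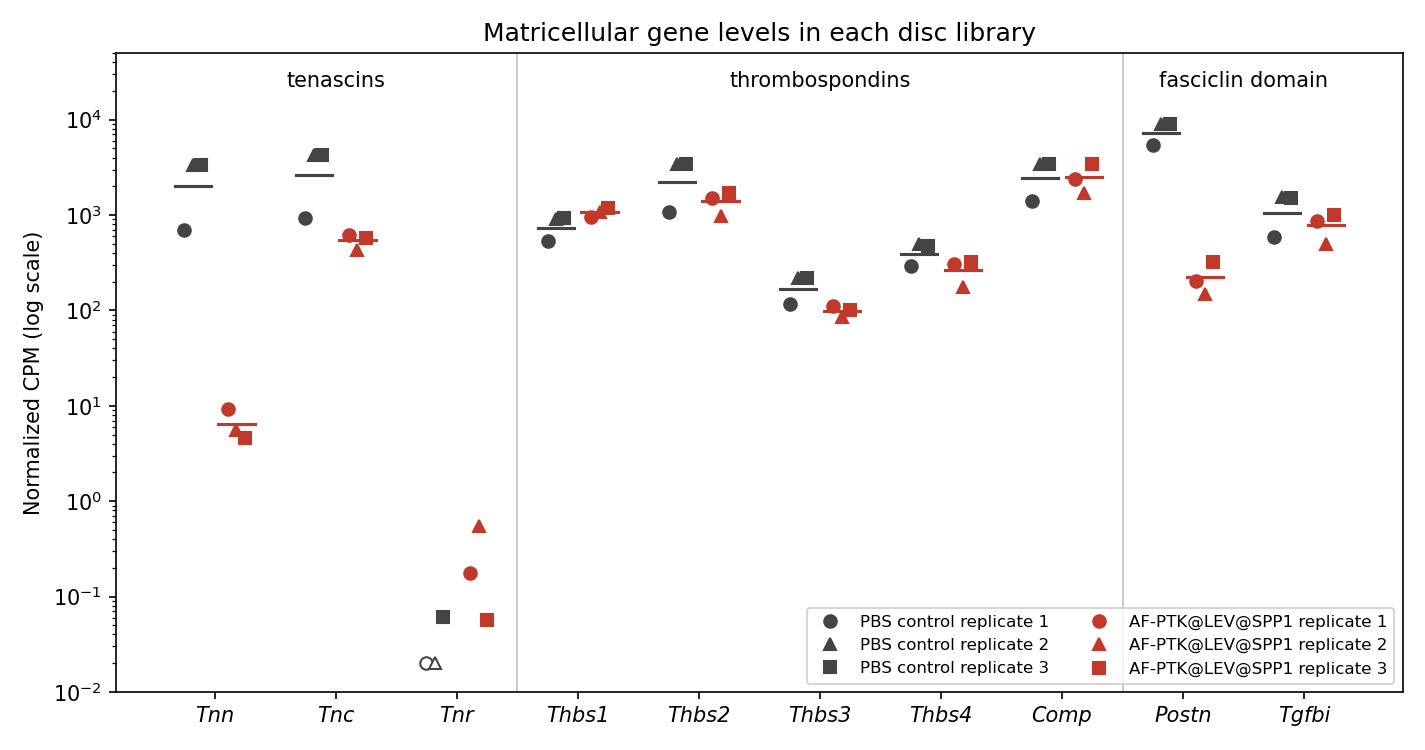
Normalized CPM on a log scale of the 10 genes in each of the 6 libraries, Control in grey and AF-PTK@LEV@SPP1 in red, with horizontal bars at the means over distinct samples except for Tnr and open symbols near the lower edge for 0 counts. Tnn (698 to 3353 against 4.62 to 9.29) and Postn (5376 to 8979 against 149 to 323) are far apart between the groups, while the Comp and Thbs2 values of the groups overlap.

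Postn, periostin, is made by fibroblasts, periosteal cells and ligament cells and takes part in collagen fibril assembly and integrin signaling (ENSRNOG00000012660, chr2:138527696-138559099, plus strand). It had 5376, 8925 and 8979 normalized CPM in the Control libraries. It had 205, 149 and 323 in the vesicle-labelled libraries. All Control libraries were high, with Control replicate 1 only moderately below the other Control libraries, and the lowest of them was 16.7-fold above the highest vesicle-labelled library. Means were 7164 ± 2528 normalized CPM (SD, n = 2) and 226 ± 88.5 (SD, n = 3), a 31.7-fold difference. Postn fell with a log2 fold change of −5.00 (SE 0.47, 95% interval −6.18 to −3.81; edgeR adjusted p = 0.0196; lower in 3 of 3 libraries than in any Control library; exact permutation p = 0.1).

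The edgeR call of Postn depended on the vesicle-labelled libraries and on the Control pair. Without vesicle-labelled replicate 1, 2 or 3 the log2 fold change was −4.96, −4.77 or −5.34, with edgeR adjusted p = 0.0567, 0.0733 or 0.136. DESeq2 called it in the same 3 fits (adjusted p = 3.27e-26, 8.86e-35 and 5.23e-40) and limma-voom did not (adjusted p = 0.0623, 0.0823 and 0.130). Without Control replicate 2 or 3 edgeR still called it (adjusted p = 0.0203 and 0.0195). The other library of the pair stayed in these fits, so they could hardly differ from the main fit. Without Control replicate 1 the log2 fold change was −5.32. Without the Control pair the log2 fold change was −4.58 (edgeR adjusted p = 0.0838), with the lone Control sample left again assumed to vary like the other group.

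Tgfbi, a fasciclin protein of cornea, bone and cartilage induced by TGF-β, is the relative of Postn in this group of genes (ENSRNOG00000012216, chr17:7955603-7985240, minus strand). It had 588, 1542 and 1525 normalized CPM in the Control libraries. It had 868, 495 and 998 in the vesicle-labelled libraries. Control replicate 1 lay among the vesicle-labelled libraries, so the groups overlapped. The log2 fold change of Tgfbi was −0.44 (SE 0.50, 95% interval −1.71 to 0.83; edgeR adjusted p = 0.614), and it changed sign, to 0.41, without the Control pair.

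Of the 5 thrombospondins, edgeR, DESeq2 and limma-voom called 0, and 1, Thbs3, had an unadjusted p under 0.05 in edgeR. Over all genes tested edgeR called 3.70%, and 3941 of 15537 had an unadjusted p under 0.05. Thbs1, a trimeric thrombospondin that activates latent TGF-β, binds Cd47 and restrains vessel growth (ENSRNOG00000045829, chr3:105056292-105071440, plus strand), had 540, 910 and 932 normalized CPM in the Control libraries. It had 957, 1068 and 1196 in the vesicle-labelled libraries. Of the 9 members that passed the filter on low counts, Thbs1 was the one whose vesicle-labelled libraries all lay above the Control libraries, by a narrow margin. Its log2 fold change was 0.54 (SE 0.28, 95% interval −0.17 to 1.26; edgeR adjusted p = 0.291; exact permutation p = 0.1), and the lower bound of the interval is below 0. Fsip1 overlaps Thbs1 on the opposite strand, and it had at most 72 counts in any library.

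Thbs2, the other trimer, which limits matrix metalloproteinase activity and vessel growth (ENSRNOG00000010529, chr1:55670394-55699789, minus strand), had 1071, 3408 and 3403 normalized CPM in the Control libraries. It had 1507, 982 and 1709 in the vesicle-labelled libraries. The Control pair was high, and Control replicate 1 lay among the vesicle-labelled libraries. The log2 fold change was −0.69 (95% interval −2.05 to 0.67; edgeR adjusted p = 0.460), and 0.38 without the Control pair.

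The pentameric thrombospondins Thbs3, Thbs4 and Comp lack the TGF-β-activating part of Thbs1 and lie in cartilage, bone, tendon and muscle matrix. Thbs3 (ENSRNOG00000059903, chr2:174621812-174633594, plus strand) had 116 to 220 normalized CPM in the Control libraries and 85.3 to 112 in the others. The groups nearly touched, with the lowest Control library 1.04-fold above the highest vesicle-labelled one. The log2 fold change was −0.77 (95% interval −1.52 to −0.02; edgeR adjusted p = 0.189; exact permutation p = 0.1). Thbs4, a tendon and muscle thrombospondin (ENSRNOG00000012471, chr2:23983158-24026313, minus strand), had 294 to 494 normalized CPM in the Control libraries and 176 to 320.3 in the others, which overlap. Its log2 fold change was −0.55 (95% interval −1.43 to 0.34; edgeR adjusted p = 0.373).

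Comp, cartilage oligomeric matrix protein, holds collagen fibrils in register and is mutated in pseudoachondroplasia (ENSRNOG00000048472, chr16:19047207-19055845, minus strand). Its Control libraries had 1399, 3436 and 3466 normalized CPM. The vesicle-labelled ones had 2404, 1706 and 3433. Both groups covered nearly the same range. The log2 fold change of Comp was 0.04 (SE 0.50, 95% interval −1.22 to 1.30; edgeR adjusted p = 0.965), an interval that still includes a more than 2-fold change in either direction. Its sign changed in 5 of 16 alternatives, from −0.47 without Control replicate 1 to −0.0078 without a filter on low counts, and without the Control pair it was 0.84.

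**Figure D2:**
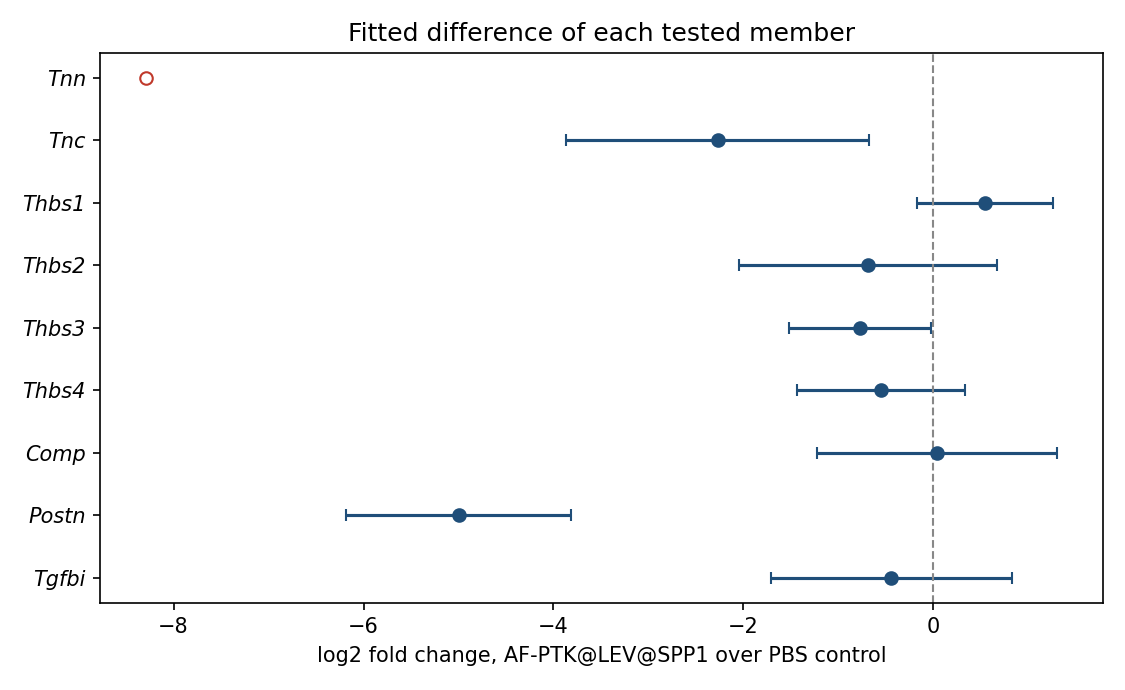
Fitted log2 fold change, AF-PTK@LEV@SPP1 over Control, of the 9 members that passed the filter on low counts, with 95% intervals over 5 distinct samples; Tnn, whose values chose the group, is an open circle without interval. The intervals of Postn (−6.18 to −3.81) and Tnc (−3.87 to −0.67) lie below 0, that of Thbs3 ends at −0.02, and those of Thbs1, Thbs2, Thbs4, Comp and Tgfbi include 0.

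Of 15537 genes tested, 575 were called (3.70%), 400 lower (2.57%) and 175 higher (1.13%). Of the 8 members tested other than Tnn, 1 was called lower, Postn, and 0 higher. With the 6 libraries kept separate, 2727 of 15042 genes were called (18.1%), 1494 of them lower (9.93%), and 2 of these 8 members, Tnc and Postn. The groups did not overlap for 4 of the 8, Tnc, Thbs1, Thbs3 and Postn, against 45.8% of all genes tested, a similar share. The calls of edgeR depended on the vesicle-labelled libraries: without replicate 1 of that group 113 genes passed, and without replicate 2 or 3 edgeR called 0, while 3109 or 2699 genes had an unadjusted p under 0.05, limma-voom called 0 or 0 and DESeq2 called 1337 or 1120. Without Control replicate 1 edgeR called 280 genes, and without the Control pair 3.

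Within the Control group, all 9 members tested were higher in the pair than in replicate 1. Tnn is among them, and its Control values were part of the choice of members. The factor was 4.79 for Tnn, 4.58 for Tnc and 3.18 for Thbs2, and it was smallest for Thbs4, at 1.66. Over all genes the median factor was 0.998, 7.37% of genes were at least as much higher in the pair as Thbs4, and 0.419% as Tnc. Among the vesicle-labelled libraries, replicate 2 had the lowest level of Tnc, Thbs2, Thbs3, Thbs4, Comp, Postn and Tgfbi. The highest of these libraries exceeded the lowest by 2.16-fold for Postn, 2.02-fold for Tgfbi and 2.01-fold for Comp and Tnn, against a median of 1.34-fold over all genes.

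The genes whose log2 CPM followed that of Tnn most closely, by Pearson's r over the 5 distinct samples among 10015 genes, were Mmp14 (0.999), Fbxo10 (0.999), Plekha3 (0.999), Agap3 (0.998) and Adamts12 (0.998). Over 5 samples in 2 groups, such a likeness cannot be told apart from the difference between the groups. Mmp14, a membrane-bound metalloproteinase that cuts collagen and activates Mmp2, had 783, 1422 and 1418 normalized CPM in the Control libraries and 222, 186 and 181 in the others. Of the members, Postn had r = 0.979 with Tnn (rank 212 of 10015), Tnc 0.888 (rank 1284), Thbs3 0.846, Thbs4 0.661, Thbs2 0.518, Tgfbi 0.416, Comp 0.00317 and Thbs1 −0.639.

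Other genes of the same pathways were followed by their role. Of 14 other matricellular genes tested, edgeR called 0 lower and 1 higher, with 7 at an unadjusted p under 0.05. Over all genes tested, 2.57% were called lower and 1.13% higher. DESeq2 called 2 of the list lower and 3 higher, as did edgeR with the 6 libraries kept separate. With the replicate number as a block, 1 was lower and 2 were higher. Spock2, a proteoglycan of the SPARC family, was the gene called in the main fit. It rose from 3.30 ± 0.351 (SD, n = 2) to 17.8 ± 1.43 normalized CPM (SD, n = 3), a log2 fold change of 2.43 (edgeR adjusted p = 0.0152). Sparc, a collagen-binding protein of bone and healing tissue and the most abundant of them, had 17717 to 24220.4 normalized CPM in the Control libraries and 25222 to 36022 in the others (edgeR adjusted p = 0.435).

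Of 22 matrix binding partners tested, 1 fell and 1 rose in edgeR. DESeq2 called 5 lower and 2 higher, and 4 were lower and 1 higher with the 6 libraries kept separate. Matn4, a matrilin that links collagen and proteoglycan networks, had 57.5, 86.8 and 89.5 normalized CPM in the Control libraries and 5.23, 4.22 and 2.91 in the others, with no overlap (log2 fold change −4.15, edgeR adjusted p = 0.0155). Chad, chondroadherin, a leucine-rich protein of cartilage that binds collagen and integrins, had 222, 465 and 467 against 2875, 1799 and 3263 (log2 fold change 2.93, edgeR adjusted p = 0.0454). Chad was not called with the replicate number as a block (edgeR adjusted p = 0.0504). Col1a1, the most abundant partner, had 31919.7 to 45053 against 45956 to 64079 (edgeR adjusted p = 0.582). Of 24 receptors tested, integrin chains, syndecans, Cd47, Lrp1 and others, edgeR called 0, with 8 at an unadjusted p under 0.05. An unadjusted p under 0.05 was reached by 3941 of all 15537 genes tested. Of these receptors limma-voom called 0, DESeq2 called 6 lower, and 7 were lower with the 6 libraries kept separate. Lrp1, an endocytic receptor for thrombospondins and the most abundant of them, had 761 to 1389 normalized CPM over the 6 libraries.

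Of 14 proteinases tested that cut matricellular proteins and their partners, 11 fell and 0 rose in edgeR, and the median log2 fold change was −2.29. Among all genes tested, 2.57% were called lower and the median log2 fold change was 0.05. DESeq2 called 11 of the list lower, as did edgeR with the 6 libraries kept separate. With the replicate number as a block 10 were lower, without Mmp2, and limma-voom called 9, without Adamts4 and Mmp2. Htra1 (log2 fold change −0.35), Bmp1 (−0.32) and Elane (2.04) were not called, and Elane had 10.8, 0.322 and 0.427 normalized CPM in the Control libraries and 3.53, 29.6 and 34.5 in the others. Mmp12, macrophage elastase, had 478, 282 and 294 normalized CPM in the Control libraries and 2.82, 3.56 and 4.39 in the others (log2 fold change −6.74, edgeR adjusted p = 0.00863). Mmp3, stromelysin, had 920, 1738 and 1784 against 89.7, 97.4 and 77.9 (log2 fold change −3.93, edgeR adjusted p = 0.0194). Mmp13, a collagenase of cartilage and bone and the most abundant of the list, had 6095, 4572 and 4559 against 626, 853 and 640.0 (log2 fold change −2.92, edgeR adjusted p = 0.0196). In each of these genes every Control library was high and every vesicle-labelled library low. Of the 11 that fell, Mmp9, Mmp12 and Mmp13, unlike Tnn, were higher in Control replicate 1 than in the pair.

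Adamts7 and Adamts12, which cut Comp, had log2 fold changes of −2.52 and −2.01 (edgeR adjusted p = 0.0246 and 0.0281). Adamts7 had 37.4, 60.9 and 61.3 normalized CPM in the Control libraries and 10.6, 8.33 and 6.90 in the others. Adamts12 had 95.8, 158 and 164 against 36.3, 30.5 and 29.7. The RNA of both Comp-cutting enzymes was thus lower in the vesicle-labelled libraries, while that of Comp itself overlapped between the groups. Mmp9, a gelatinase, fell with a log2 fold change of −1.66, Mmp14 with −2.50 and the aggrecanase Adamts4 with −2.97 (edgeR adjusted p = 0.0260, 0.0260 and 0.0316). The count of proteinases called lower was 1, Mmp12, without vesicle-labelled replicate 1 or without the Control pair, and 0 without replicate 2 or 3 of that group, when edgeR called no gene of the table, while 10 were called without Control replicate 1, all but Mmp9. The list's median lay between −2.54 and −1.74 with a library or the Control pair left out.

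**Figure D3:**
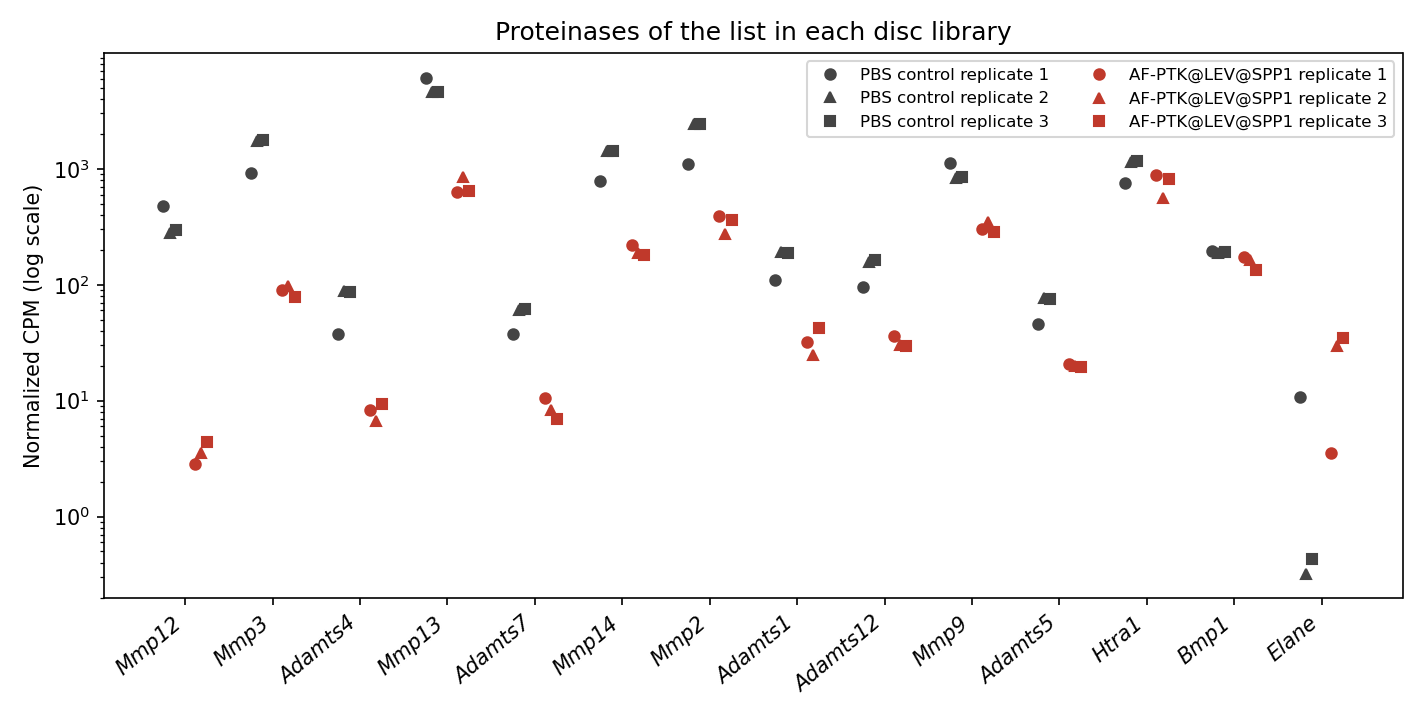
Normalized CPM on a log scale of the 14 proteinases tested in each of the 6 libraries, Control in grey and AF-PTK@LEV@SPP1 in red, in order of log2 fold change. For the 11 that fell, from Mmp12 to Adamts5, all Control libraries lie above all the vesicle-labelled libraries; Htra1, Bmp1 and Elane were not called.

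Of 23 inducers and transcription factors tested, 3 fell and 0 rose in edgeR, with 14 at an unadjusted p under 0.05. Over all genes tested, 2.57% were called lower. DESeq2 called 9 of the list lower and 1 higher, limma-voom called 2 lower, and 11 were lower with the 6 libraries kept separate. Tgfbr1, a receptor chain for TGF-β, which induces Postn, Tnc and Tgfbi in many cells, had 305, 269 and 277 normalized CPM in the Control libraries and 150.1, 128 and 153 in the others (log2 fold change −1.02, edgeR adjusted p = 0.0341). Il6, an inflammatory cytokine, had 8.42, 18.4 and 16.5 against 0.118, 0.362 and 0.456 (log2 fold change −5.36, edgeR adjusted p = 0.0230), and limma-voom did not call it. The vesicle-labelled values of Il6 rested on 2, 6 and 8 counts. That of replicate 1 was under 3 counts, the smallest level taken as measured. Tgfbr2, the other TGF-β receptor chain and the most abundant gene of the list, had 468 to 545 against 306 to 387 (edgeR adjusted p = 0.119). Il4 and Il13, which induce Postn in epithelium and fibroblasts, were at or under 3 counts in every library. Il4r, a receptor chain for both, had 71.5, 63.9 and 64.5 against 29.8, 32.9 and 31.0 (log2 fold change −1.13, edgeR adjusted p = 0.0196). Calls in these lists were lost in the same way as those of the proteinases when a vesicle-labelled library was left out: without replicate 2 or 3 edgeR called 0 genes of each list, and without replicate 1 it called Spock2 and Matn4 but not Chad, Tgfbr1, Il4r or Il6, and gained Smoc1 and Il1b. Chad and Tgfbr1 were not called without Control replicate 1 either, where Fosl1 was gained, and without the Control pair edgeR called 0 genes of these lists.

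Markers of the cells that could carry these RNAs were summed in each library. Fibroblast markers summed to 17645, 35268 and 35392 normalized CPM in the Control libraries and to 10829, 9192 and 13141 in the others, sums carried by Col3a1, Dcn and Lum. Of the 6 fibroblast markers 4 had a log2 fold change below 0 and 1 fell, Lum, a collagen-binding proteoglycan, from 4206 to 402 normalized CPM on average (log2 fold change −3.40, edgeR adjusted p = 0.0303); Col3a1 was the most abundant, at 9236 to 18260.0 against 4703 to 6675, and no marker was at 0. Pi16 went the other way, with 38.9, 9.33 and 9.10 normalized CPM against 204.5, 121 and 265 (log2 fold change 3.03, edgeR adjusted p = 0.0885; 0.0242 with the 6 libraries kept separate), and Dpt had 212, 184 and 178 against 207, 178 and 263 (log2 fold change 0.13); both were higher in Control replicate 1 than in the pair. Dcn is also among the matrix binding partners, as are Acan, Col2a1, Col9a1 and Col1a1 of the chondrocyte and annulus fibrosus lists. Markers of osteoblasts and osteocytes, of which 9 were tested, summed to 4868, 1862 and 1860.4 against 2360.0, 3341 and 1952, so they overlapped between the groups and were highest in Control replicate 1, where Tnn was lowest among the Control libraries. Ibsp, a mineral-binding bone protein, led this list with 2815, 1502 and 1485 normalized CPM against 1061, 1489 and 652.

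Of 8 macrophage markers 1 fell, Cd68 (log2 fold change −1.97, edgeR adjusted p = 0.0231), and 7 of the 8 had a log2 fold change below 0. Cd163 lay above 0 and was not called (54.0, 29.5 and 29.0 normalized CPM against 47.2, 143 and 88.3; log2 fold change 1.15, edgeR adjusted p = 0.246). The macrophage markers summed to 1054, 675 and 673 against 367, 625 and 501, with Csf1r the most abundant. Neither Cd68 nor Lum was called without vesicle-labelled replicate 1, 2 or 3 or without the Control pair, and Cd68 was also not called without Control replicate 1. The 6 nucleus pulposus and notochord markers tested had sums of 1679, 533 and 524 against 7146, 3969.7 and 3494, led by Car3. Chondrocyte sums, led by Col2a1, were 20493 to 28278 against 26422 to 40212, and those of annulus fibrosus and tendon, led by Col1a1, 33820 to 48829 against 48980.0 to 68658. Endothelial markers, led by Pecam1, summed to 433 to 544 against 324 to 371, and adipocyte markers, led by Adipoq, to 39.6 to 254 against 399 to 969. The part of these markers in the values of Tnn, Tnc and Postn was not tested.

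Other markers set vesicle-labelled replicates 2 and 3 apart from the rest. Neutrophil markers, led by S100a9, summed to 1014, 180 and 169 normalized CPM in the Control libraries and to 245, 2317 and 3285 in the others. Erythroid markers, led by Hba-a1, summed to 2341, 3182 and 3272 against 2468, 19827 and 13782. Skeletal muscle markers, led by Acta1, summed to 807, 1032 and 1052 against 829.9, 8669 and 2240.3. RNA of blood and skeletal muscle was thus high in replicates 2 and 3 of that group and not in replicate 1. Its part in the values of the members was not tested. Megakaryocyte and platelet markers, led by Pf4, summed to 42.9 to 55.0 against 16.5 to 57.0, with Gp1bb at 0 in all. Smooth muscle and pericyte markers, led by Acta2, went the other way, with 560.5 to 645 against 1478, 538 and 641 in vesicle-labelled replicates 1, 2 and 3. In the 11 marker lists given here other than fibroblast and macrophage, edgeR called 0 of 62 genes tested, with 16 at an unadjusted p under 0.05, limma-voom called 0 and DESeq2 called 2 lower and 12 higher. Without Control replicate 1 edgeR called Bglap, Phex and Sost of the osteoblast and osteocyte list higher, and without vesicle-labelled replicate 1 Alas2 of the erythroid list.

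Promoter windows of 300 bases, 250 before to 50 after a RefSeq transcript start (GRCr8), were matched for 9 of the 10 genes, without Thbs2. The windows of Tnn, Tnc, Postn and Tnr had 43.7%, 52.3%, 52.0% and 38.3% G or C, and those of Thbs1, Thbs3, Thbs4, Comp and Tgfbi had 61.7% to 70.0%, against a median of 51.7% over 33469 windows. The windows were searched for 4 motifs on both strands, spelled out here with N for any base. TATAAA, the core of a TATA box, was in 14.2% of all windows and in those of Postn, from base −44, and Tnc, from base −208. TGANTCA, the AP-1 letters, was in 7.33% of all windows and in 0 of the 9, TGTGGT, the letters bound by RUNX proteins, was in 17.3% and in that of Tgfbi, and CANNTG, the E-box, was in 72.1% and in 5 of the 9. The windows of Tnn and Postn, the members with the largest differences, are shown 5′ to 3′ on the strand of the gene, with every match of the 4 motifs in capitals. That of Postn (chr2:140677811-140678110, plus strand) holds TATAAA from base −44 and CANNTG from bases −244 and −113 relative to the start, and that of Tnn (chr13:74919740-74920039, minus strand) holds none of the 4, which says only that these letters are not in this window.
Postn: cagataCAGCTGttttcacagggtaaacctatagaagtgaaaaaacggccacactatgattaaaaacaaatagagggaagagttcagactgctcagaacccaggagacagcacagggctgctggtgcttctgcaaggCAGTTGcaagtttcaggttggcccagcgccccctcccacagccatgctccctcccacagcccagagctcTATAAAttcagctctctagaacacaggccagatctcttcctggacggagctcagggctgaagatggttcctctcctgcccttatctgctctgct
Tnn: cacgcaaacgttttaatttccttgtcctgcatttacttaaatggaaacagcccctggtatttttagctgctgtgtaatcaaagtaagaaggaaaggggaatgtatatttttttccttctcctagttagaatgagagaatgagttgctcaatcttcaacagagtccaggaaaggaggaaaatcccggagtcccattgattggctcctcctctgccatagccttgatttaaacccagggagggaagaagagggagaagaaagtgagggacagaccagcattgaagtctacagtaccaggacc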

How the data were processed

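RNA of rat discs was measured in 6 libraries, 3 Control and 3 labelled AF-PTK@LEV@SPP1. Counts as deposited by the authors were whole numbers of reads per Ensembl rat gene without normalization; the submitters' processing notes name FastQC, Trimmomatic, HISAT2, featureCounts, DESeq2 and the mouse build mm10, which the rat identifiers in the table do not match. The rat build, the use of strand and the handling of shared reads were not given in the sources used here, so antisense reads cannot be told apart, and table coordinates are not compared with GRCr8. The table has no gene lengths, so levels per length were not computed; "most abundant" means the highest normalized CPM, which also grows with gene length, and ratios are of counts.

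Counts were fitted with edgeR 4.0.16 (R 4.3.3; trimmed mean of M-values, filterByExpr with a minimum count of 10, quasi-likelihood test, Benjamini-Hochberg adjustment over all genes tested, called at an adjusted p under 0.05 at any fold). The common biological coefficient of variation was 0.302. Control replicates 2 and 3 were summed. Members and lists were chosen with earlier results of these data known, as were the summed pair and the call rule, which differ from an earlier analysis with 6 libraries and an additional log2 fold change above 1. Exact permutation tests were two-sided on log2 CPM with a prior count of 2. Named genes are the 10 members, up to 8 called genes per pathway list by adjusted p, the most abundant gene per list and the 5 genes most like Tnn at a log2 CPM averaging 3 or more; Lum, Cd68 and other names were chosen after their values were seen. The 5 further pathway lists and 13 marker lists were matched by symbol or RefSeq synonym; a further marker list is not reported here, and Tnxb, Cd36 and Krt19 were not analysed here. Il4ra was matched to Il4r after the other values were seen. Alternatives were limma-voom 3.58.1, DESeq2 1.42.0, other normalizations and filters, a log2 fold change threshold, a prior count of 0.5, 6 separate libraries, the replicate block and leaving out libraries; leaving out the Control pair was added after seeing the data. The fits were tested on simulated data, where DESeq2 made more false calls than edgeR or limma-voom. Histology and cell experiments were not used here.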

Additional observations from a re-analysis of the deposited data

How the results depend on the processing

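With 2 distinct Control samples, the number of genes called depended strongly on the setting. The settings with 6 separate libraries and with the replicate block count the Control pair as independent samples and so overstate n. The main fit called 575 genes; 2727 were called with 6 separate libraries and 2499 with DESeq2, from 0 to 566 with a library left out (0 without AF-PTK@LEV@SPP1 replicate 2 or 3, where DESeq2 called 1337 or 1120), and 3 without the Control pair. Of the 8 members tested other than Tnn, 1 was called, from 0 to 2 with a library left out and 0 without the Control pair. Genes called in the 5 further pathway lists numbered 17, and 39 with 6 separate libraries. With the replicate number as a replicate block, 741 genes, 1 of these 8 members and 18 pathway genes were called. Deviations of same-numbered libraries from their group means correlated at −0.323, −0.274 and −0.0794. Because the libraries of the Control pair were nearly the same, these values depend on each other. They cannot show whether the numbers pair the samples. The block fit left Postn called (edgeR adjusted p = 0.0314) and Tnc not.

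In 16 alternatives Postn kept its direction, from −5.34 to −4.58 on the log2 scale, and Tnc from −2.99 to −0.79; Tnn ranged from −9.02 to −6.75. Comp had a log2 fold change of −0.14 with 6 separate libraries, −0.079 with the block and −0.0078 without a filter, and from −0.47 to 0.26 with a library left out. Without the Control pair, Comp was at 0.84, Thbs2 at 0.38 and Tgfbi at 0.41; without Control replicate 1, Thbs2 was at −1.30 and Tgfbi at −0.98. Where Control replicate 1 or the pair is left out, the lone Control sample is assumed to vary like the other group. The causes were not tested. Thbs1, Thbs3 and Thbs4 kept their sign in all 16, but without Control replicate 1 they were at 0.20, −1.17 and −0.87 and without the Control pair at 0.98, −0.24 and −0.14. A prior count of 0.5 left the exact permutation p of the 8 members tested at its value. Depth limited Tnr alone among the members.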
